A study of Bombyx mori with 4 samples.

Results

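Cytochrome P450s (P450s), glutathione S-transferases (GSTs), UDP-glycosyltransferases (UGTs) and carboxylesterases are the enzyme families that insects use most to process plant toxins, insecticides and many of their own hormones and lipids. P450s oxidise their substrates, carboxylesterases cleave ester bonds, and GSTs and UGTs attach glutathione or a sugar, which makes the products easier to excrete. In caterpillars the midgut, where food first meets the animal's cells, is a main site of this work, along with the fat body and the Malpighian tubules.

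The members were chosen by the name of the best protein hit given for each gene model in the deposited table. Values were not part of this rule, but earlier results of these data were known when it was set. They were 69 of 5558 gene models, namely 21 P450s, 13 GSTs, 17 UGTs and 18 carboxylesterases. One match in the P450 list, BGIBMGA006837 (Cpr), is NADPH cytochrome P450 reductase, the enzyme that feeds electrons to P450s, and not a P450 itself. A silkworm protein was the best hit of 43 of the 69 members, so the names of the others are those of a similar protein in another insect, and 6 members had a weak hit with an E-value above 1e-50. Of the 69 members, 42 reached 1 RPM, that is 1 tag per 1000000, in at least 1 library, 23 were above 0 but under 1 RPM, and 4 were listed at 0 in all 4 libraries. Of all gene models 57.8% reached 1 RPM and 7.03% were listed at 0 throughout. Levels were measured by deep sequencing of midgut RNA from larvae of the silkworm, Bombyx mori, at day 2 of their 5th instar, the last larval stage. The 4 libraries were 932 heat and 932 control, from the variety labelled heat-tolerant, and HY heat and HY control, from the variety labelled heat-sensitive. Heat means exposure to high temperature, and the sources used here give neither its degree and duration nor the number of larvae behind a library. Each group is 1 library, so no difference has a replicate check and no p-value is given. All comparisons are between libraries.

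Values are tags per 1000000 tags of the library (RPM) without correction for gene length, so they compare a gene between libraries and not genes with each other. At the recovered totals of 5828615 tags for 932 heat, 6139297 for 932 control, 6005743 for HY heat and 5799076 for HY control, 1 tag was worth 0.163 to 0.172 RPM. The lowest value above 0 was 2 tags in every library, so a gene listed at 0 may have had 0 or 1 tag. Ratios are log2 of the value plus 1, and a member counts as higher or lower from 2-fold on if 1 of the libraries compared had at least 1 RPM. Under that rule a gene listed at 0 in one library and above the minimum in the other has to count, so such members are named as listed at 0 and their ratios are not read as folds. Square brackets give the exact 95% interval of the ratio on the log2 scale, taken from the tags themselves with nothing added, for counting error alone.

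Genes that mark the midgut epithelium (aminopeptidases N, peritrophins, proton pump subunits and all models with trypsin in their names, chymotrypsins and inhibitors included, 42 models) summed to 7433.5 RPM in 932 heat and 12619.5 in 932 control, and to 6759.7 in HY heat and 6525.0 in HY control, with 36 to 38 of the models above 0 in a library. Fat body markers summed to 33.7 to 49.4 RPM and blood cell markers to 1.9 to 7.0 RPM over the 4 libraries. The 4 models of the silk gland list summed to 55.8 RPM in 932 heat and 24.3 in 932 control, and to 46.5 in HY heat and 32.8 in HY control, nearly all of it from fibroinase (BGIBMGA011342), a protease, while fibroin P25 was at or near 0. Muscle markers summed to 641.5 to 855.8 RPM and cuticle protein genes to 1488.6 to 3811.0 RPM. In whole midguts, fewer cells of a type and less RNA per cell cannot be told apart. The HY heat values were above the HY control values for most genes, with a median log2 ratio of 0.34 over the 2810 genes compared. The median of all genes was 0.02 for heat in 932, -0.26 for 932 over HY under heat and 0.05 for 932 over HY under control.

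More members were past 2-fold between the varieties than after heat. Under heat 16 of 36 members above the minimum were at least 2-fold higher in 932 than in HY and 9 were lower, where 14.1% and 20.8% of all genes were. Under control 14 of 39 members were higher in 932 and 10 lower, where 17.9% and 15.1% of all genes were. After heat 5 of 36 members were higher and 9 lower in 932, against a background of 11.1% and 9.86%, and 3 of 30 were higher and 5 lower in HY, against 14.1% and 4.59%. Centred on the median gene, the HY counts were 1 higher and 8 lower. No shares of all genes after centring are given, so 14.1% and 4.59% cannot be set beside these counts. The differences between the varieties under heat and under control come from separate libraries, and 15 of 33 members above the minimum in both were past 2-fold in the same direction both times, where 17.8% of all genes were. Of these, 9 were higher in 932 and 6 lower, against 8.41% and 9.43% of all genes, and 1 member was higher in 932 under heat and lower under control, against 0.43%. Among the 15, UGT33D7 was listed at 0 in both HY libraries, and GSTe2, GSTd3 and UGT33D5 were listed at 0 in both 932 libraries. Under the rule these had to count the same way both times. The UGT model BGIBMGA010099 was listed at 0 in HY control, so its call under control was fixed too. Such genes are also part of the shares of all genes. For heat no member of 24 was past 2-fold in the same direction in both varieties, where 3.3% of all genes were, 2.56% higher and 0.738% lower. Without members listed at 0 in either library, 17 of 28 members under heat and 12 of 27 under control were past 2-fold between the varieties, where 25.9% and 24.5% of all genes were. The same restriction left 9 of 31 members past 2-fold after heat in 932 and 6 of 28 in HY, where 17.5% and 14.5% of all genes were. The median member was at 0.25 for 932 over HY under heat and 0.61 under control, and at -0.44 after heat in 932 and -0.14 in HY.

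Asking that the whole counting interval lie beyond 2-fold, with a value of 0 taken as 1 tag, gave smaller counts. Intervals are narrower for genes with more tags, and 36.2% of the members reached 10 RPM in a library, against 21.6% of all gene models. The shares of all genes were not matched for level. Under heat 13 members were then higher in 932 than in HY and 8 lower, where 6.82% and 8.09% of all genes were, and under control 10 were higher and 7 lower, where 9.06% and 6.83% were. After heat in 932 3 were higher and 2 lower, where 3.32% and 3.03% of all genes were, and in HY 2 were higher and 2 lower, where 3.63% and 1.64% were.

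**Figure D1:**
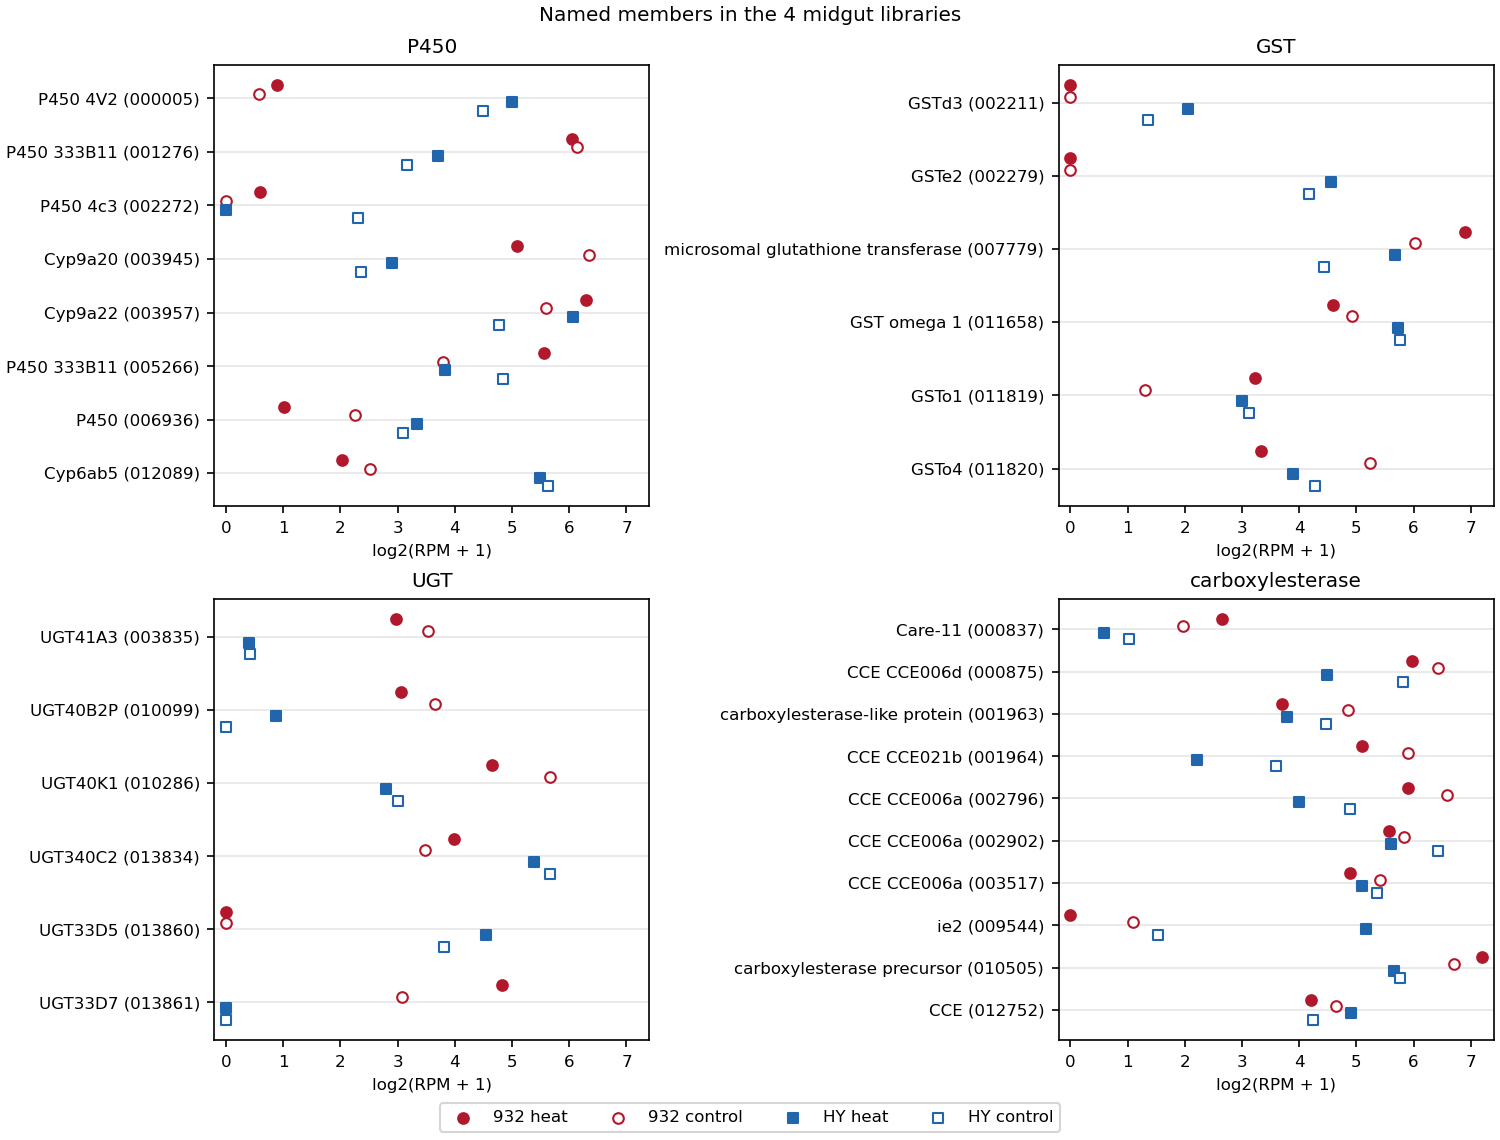
Levels of the 30 named members in the 4 libraries, by family, as log2 of RPM plus 1, with 1 point per library (circles 932, squares HY, filled heat, open control) and the end of the gene model identifier in brackets. Several members separate circles from squares, such as GSTe2 and UGT33D5, which are listed at 0 in both 932 libraries, and UGT33D7, which is listed at 0 in both HY libraries.

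Levels were also summed by family, where a ratio of sums must lie within the range of its members' ratios. The UGTs summed to 83.9 RPM in 932 heat and 91.2 in 932 control, and to 72.9 in HY heat and 70.9 in HY control. The GSTs summed to 164.4 and 138.9 RPM in 932 heat and 932 control, and to 153.2 and 125.2 in HY heat and HY control. In both of these families the log2 ratios of the sums lay between -0.12 and 0.36 in the 4 comparisons. Both sums took in members that were higher and members that were lower in 932 than in HY, which offset each other within the sum. Whether the level of a member depends on that of another was not tested. The P450s summed to 235.9 and 228.1 RPM in 932 heat and 932 control, and to 188.0 and 151.4 in HY heat and HY control. The carboxylesterases summed to 412.1 and 499.7 RPM in 932 heat and 932 control, and to 249.6 and 315.4 in HY heat and HY control. Their sum was higher in 932 than in HY with a log2 ratio of 0.72 [0.63 to 0.82] under heat and 0.66 [0.58 to 0.75] under control. It was lower after heat in both varieties, with log2 ratios of -0.28 [-0.36 to -0.20] in 932 and -0.34 [-0.44 to -0.24] in HY. As a share of the tags of all listed gene models it was 0.271% in 932 heat and 0.268% in 932 control. The share was 0.166% in HY heat and 0.273% in HY control. By that share it was not lower after heat in 932, nor higher in 932 than in HY under control.

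**Figure D2:**
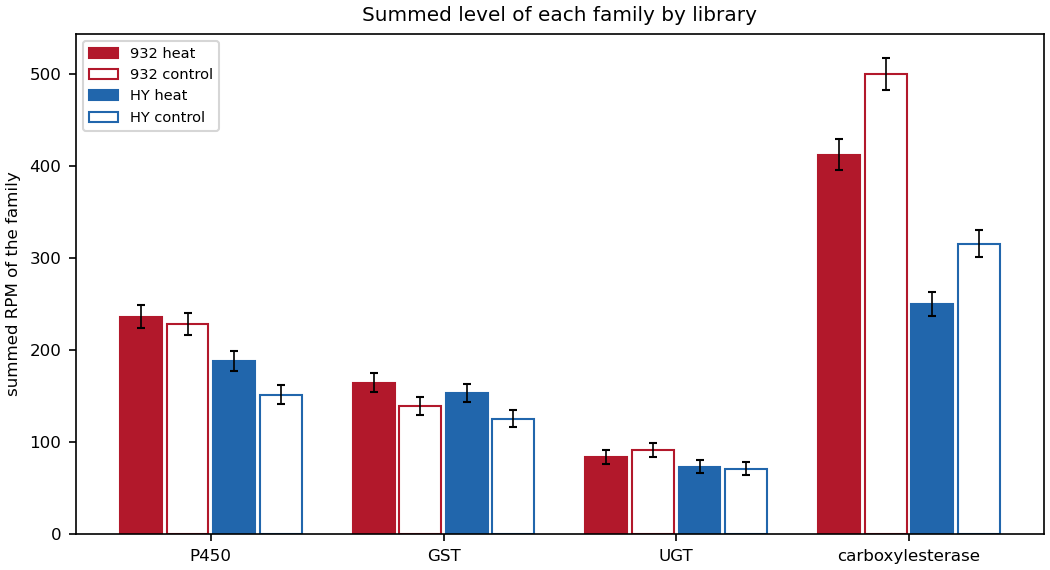
Summed RPM of each family in the 4 libraries, with bars for the sum and error bars for the exact 95% Poisson interval of the tag number, which covers counting error only. The carboxylesterase sums are 412.1 and 499.7 in 932 heat and 932 control and 249.6 and 315.4 in HY heat and HY control, while the 4 UGT sums lie between 70.9 and 91.2.

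Among the P450s the split between varieties ran both ways. Of the 9 P450 models above the minimum under heat, 4 were at least 2-fold higher in 932 and 3 lower. Of the 11 under control 3 were higher and 4 lower. Among all genes 14.1% were higher and 20.8% lower under heat, and 17.9% and 15.1% under control. Cyp6ae7 (BGIBMGA013238), higher under heat, was listed at 0 in HY heat. Under control BGIBMGA001277, higher, was listed at 0 in HY control, and BGIBMGA002272, lower, in 932 control. The family medians were 0.22 under heat and 0.20 under control. Cyp9a20 (BGIBMGA003945) belongs to the CYP9A group, which in caterpillars is known for handling plant toxins and insecticides. It had 32.9 RPM in 932 heat and 80.5 in 932 control, and 6.49 in HY heat and 4.14 in HY control. Its log2 ratio of 932 over HY was 2.18 [1.84 to 2.88] under heat and 3.99 [3.69 to 4.94] under control. BGIBMGA001276 has as its best hit CYP333B11 of the hawkmoth Manduca sexta, of a group of mitochondrial P450s. It had 65.0 RPM in 932 heat and 69.4 in 932 control, and 12.0 in HY heat and 7.93 in HY control. Both 932 libraries were thus above both HY libraries for these genes, with ratios of 2.35 [2.07 to 2.82] under heat and 2.98 [2.69 to 3.60] under control for BGIBMGA001276.

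The opposite order was seen for 2 further P450s. Cyp6ab5 (BGIBMGA012089), of the CYP6 group that many insects use against plant compounds, had 3.09 RPM in 932 heat and 4.72 in 932 control, and 43.8 in HY heat and 48.3 in HY control. BGIBMGA000005, whose hit to a family 4 P450 of the monarch butterfly was weak, had 0.86 RPM in 932 heat and 0.49 in 932 control, and 30.8 in HY heat and 21.6 in HY control. Both 932 libraries were below both HY libraries for these genes. The log2 ratios of 932 over HY were -3.45 [-4.60 to -3.14] under heat and -3.11 [-3.96 to -2.80] under control for Cyp6ab5. They were -4.10 [-6.81 to -3.92] under heat and -3.92 [-7.76 to -3.88] under control for BGIBMGA000005, which had only 5 tags in 932 heat and 3 in 932 control. BGIBMGA006936, named only as a silkworm P450, had 1.03 RPM in 932 heat and 3.75 in 932 control, and 9.16 in HY heat and 7.59 in HY control. It was past 2-fold between the varieties under heat only, at -2.32 [-4.66 to -1.94], against -0.85 [-1.81 to -0.26] under control.

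After heat 1 of 10 P450 models above the minimum was at least 2-fold higher in 932 and 3 were lower, where 11.1% and 9.86% of all genes were. In HY 1 of 9 was higher and 2 lower, where 14.1% and 4.59% were. The medians were -0.27 in 932 and 0.50 in HY. The higher one in 932 was BGIBMGA005266, whose hit is a CYP333B11-named protein of the monarch butterfly. It had 46.0 RPM in 932 heat and 12.9 in 932 control, and 13.2 in HY heat and 27.8 in HY control. The ratio for heat was 1.76 [1.47 to 2.22] in 932 and -1.02 [-1.48 to -0.68] in HY, so it went opposite ways. Under heat 932 was above HY, at 1.73 [1.44 to 2.19], and under control 932 was below HY, at -1.05 [-1.52 to -0.71]. Cyp9a20 was lower after heat in 932, at -1.26 [-1.54 to -1.05], while its HY ratio was 0.54 [-0.12 to 1.45]. BGIBMGA006936 was also lower in 932, at -1.23 [-3.45 to -0.53]. The third lower one was Cyp4m5 (BGIBMGA003683), a family 4 P450 that was listed at 0 in 932 heat and had 1.14 RPM in 932 control, 0.83 in HY heat and 0.86 in HY control.

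Cyp9a22 (BGIBMGA003957), a CYP9A gene like Cyp9a20, had 77.0 RPM in 932 heat and 47.1 in 932 control, and 65.9 in HY heat and 26.2 in HY control. Both heat libraries were above both control libraries. The heat ratio was 0.70 [0.49 to 0.93] in 932 and 1.30 [1.06 to 1.61] in HY, and centred on the median gene the HY ratio was 0.96, below 2-fold. In HY BGIBMGA005266 and BGIBMGA002272 were lower after heat. BGIBMGA002272, a family 4 P450 by its swallowtail hit, had 0.51 RPM in 932 heat and was listed at 0 in 932 control, and it was listed at 0 in HY heat and had 3.97 RPM in HY control. P450s of ecdysone synthesis were named after their values were seen. Cyp315a1 (BGIBMGA005496), the shadow enzyme of that pathway, had 5.49 RPM in 932 heat and 5.38 in 932 control, and 5.00 in HY heat and 2.76 in HY control. Cyp302a1 (BGIBMGA000368), the disembodied enzyme, was listed at 0 in all 4 libraries, as were the models with hits to CYP333A3 and CYP6AN5 of the hawkmoth. The remaining P450 models, among them Cyp6ae7, Cyp337a1 and Cyp6b29, had at most 1.37 RPM in any library.

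Of the GSTs above the minimum, 2 of 9 were at least 2-fold higher in 932 than in HY under heat and 3 lower. Under control 3 of 10 were higher and 4 lower. Among all genes 14.1% were higher and 20.8% lower under heat, and 17.9% and 15.1% under control. The medians were -0.55 under heat and -0.52 under control. Under heat 3 of the calls had a library listed at 0. In 5 of the 7 calls under control a library was listed at 0. GSTe2 (BGIBMGA002279) is of the epsilon class, which is particular to insects and whose mosquito counterpart breaks down DDT. It was listed at 0 in both 932 libraries and had 22.6 RPM in HY heat and 17.1 in HY control. GSTd3 (BGIBMGA002211), of the related delta class, was also listed at 0 in both 932 libraries and had 3.16 RPM in HY heat and 1.55 in HY control. These were 2 of 7 GSTs with at least 1 RPM in both HY libraries, and 3.12% of all such genes were listed at 0 in both 932 libraries. Their HY heat ratios were 0.39 [0.02 to 0.80] for GSTe2 and 0.71 [-0.19 to 2.35] for GSTd3, below 2-fold.

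Omega class GSTs, which use glutathione to reduce disulphides and dehydroascorbate, were measured by 3 models. BGIBMGA011658 (hit named omega 1) had 23.0 RPM in 932 heat and 29.3 in 932 control, and 51.8 in HY heat and 53.1 in HY control. Both 932 libraries were below both HY libraries, with ratios of -1.14 [-1.47 to -0.87] under heat, which was -0.88 after centring, and -0.84 [-1.13 to -0.59] under control. GSTo4 (BGIBMGA011820) had 9.09 RPM in 932 heat and 36.8 in 932 control, and 13.8 in HY heat and 18.5 in HY control. GSTo1 (BGIBMGA011819) had 8.41 RPM in 932 heat and 1.47 in 932 control, and 6.99 in HY heat and 7.76 in HY control. So 932 heat was lowest of the 4 libraries for GSTo4, while for GSTo1 the low library was 932 control. After heat in 932 the ratios were -1.91 [-2.48 to -1.58] for GSTo4 and 1.93 [1.48 to 3.73] for GSTo1, and in HY they were -0.39 [-0.85 to 0.01] and -0.13 [-0.79 to 0.49]. The ratio of 932 over HY for GSTo1 was 0.24 [-0.36 to 0.90] under heat and -1.83 [-3.62 to -1.35] under control.

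The microsomal glutathione transferase (BGIBMGA007779) is a membrane protein that is unrelated in structure to the other GSTs. It had 117.9 RPM in 932 heat and 64.3 in 932 control, and 50.3 in HY heat and 20.7 in HY control. Heat was above control in both varieties and 932 above HY under both conditions. The heat ratio was 0.86 [0.69 to 1.06] in 932 and 1.24 [0.97 to 1.60] in HY, which was 0.90 after centring. The ratio of 932 over HY was 1.21 [1.03 to 1.43] under heat and 1.59 [1.34 to 1.94] under control. This gene took 71.7% of the GST tags in 932 heat and 46.3% in 932 control. Of the 8 GSTs above the minimum after heat, 2 were higher and 2 lower in 932, where 11.1% and 9.86% of all genes were. In HY 1 was higher and 1 lower, where 14.1% and 4.59% were. The medians were 0.00 in 932 and -0.08 in HY. The other calls were GSTs2 (BGIBMGA009107) and GSTd1 (BGIBMGA006537) in 932 and GSTe1 (BGIBMGA001051) in HY, each listed at 0 in 1 library and at most 1.37 RPM in the other. The sigma class GSTs1 (BGIBMGA009106) had 1.89 RPM in 932 heat and 4.24 in 932 control, and 3.50 in HY heat and 5.00 in HY control, with no ratio past 2-fold. Models of the zeta and theta classes had at most 1.72 RPM.

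For the UGTs every member above the minimum was at least 2-fold apart between the varieties. Under heat 5 of 7 were higher in 932 and 2 lower, where 14.1% and 20.8% of all genes were. Under control 4 of 6 were higher and 2 lower, where 17.9% and 15.1% were. Under heat 3 of the calls had a library listed at 0. All 6 members compared under both conditions were past 2-fold in the same direction in each. The medians were 1.84 under heat and 2.87 under control, and moved to 0.68 and 0.90 with 10 added in place of 1. In 3 of the 6 a library listed at 0 fixed the call under control. The 3 UGTs above 0 in both control libraries were past 2-fold as well. UGT40K1 (BGIBMGA010286) is known as the quercetin glucosyltransferase of the Green b locus, which colours cocoons green. It had 24.02 RPM in 932 heat and 49.7 in 932 control, and 5.99 in HY heat and 7.07 in HY control, so that both 932 libraries were higher. Its ratio of 932 over HY was 1.84 [1.47 to 2.57] under heat and 2.65 [2.34 to 3.32] under control.

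UGT41A3 (BGIBMGA003835) had 6.86 RPM in 932 heat and 10.6 in 932 control, and 0.33 in HY heat and 0.34 in HY control. The model with a hit to UGT40B2P (BGIBMGA010099), a partial sequence by its name, had 7.38 RPM in 932 heat and 11.6 in 932 control, 0.83 in HY heat, and was listed at 0 in HY control. UGT340C2 (BGIBMGA013834) was on the other side, with 14.8 RPM in 932 heat and 10.1 in 932 control, and 41.0 in HY heat and 49.7 in HY control. The ratio of 932 over HY for UGT340C2 was -1.41 [-1.84 to -1.11] under heat and -2.19 [-2.72 to -1.90] under control. For UGT41A3 it was 2.56 [2.42 to 7.46] under heat and 3.11 [3.03 to 8.02] under control, where HY had 2 tags in each library.

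A pair of UGT33D genes was seen in 1 variety each. UGT33D7 (BGIBMGA013861) had 27.5 RPM in 932 heat and 7.49 in 932 control and was listed at 0 in both HY libraries. UGT33D5 (BGIBMGA013860) was listed at 0 in both 932 libraries and had 22.5 RPM in HY heat and 13.1 in HY control. For genes with at least 1 RPM in both 932 libraries, 2.66% were listed at 0 in both HY libraries. In the RefSeq order of assembly ASM3026992v2 these genes have 1 protein-coding gene between them. These genes belong to 1 subfamily, and how tags that match several copies were counted was not given in the sources used here, so the split between UGT33D5 and UGT33D7 is uncertain. UGT33D1 and UGT33D8, further copies, had at most 0.69 RPM.

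After heat in 932, 2 of the 6 UGTs above the minimum were higher and 1 was lower, where 11.1% and 9.86% of all genes were. The median was -0.03. The higher ones were UGT33D7, at 1.74 [1.39 to 2.38], and UGT41A2 (BGIBMGA003817), which had 1.37 RPM in 932 heat and was listed at 0 in the other 3 libraries. UGT40K1 was lower in 932 at -1.02 [-1.35 to -0.76]. In HY none of 3 UGTs above the minimum was past 2-fold, and the ratios lay between -0.27 and 0.73 with a median of -0.21. The other 10 of the 17 UGT models, which include UGT33R1, UGT33R2, UGT47A1, UGT48C1 and UGT40A1, stayed below 1 RPM in every library.

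**Figure D3:**
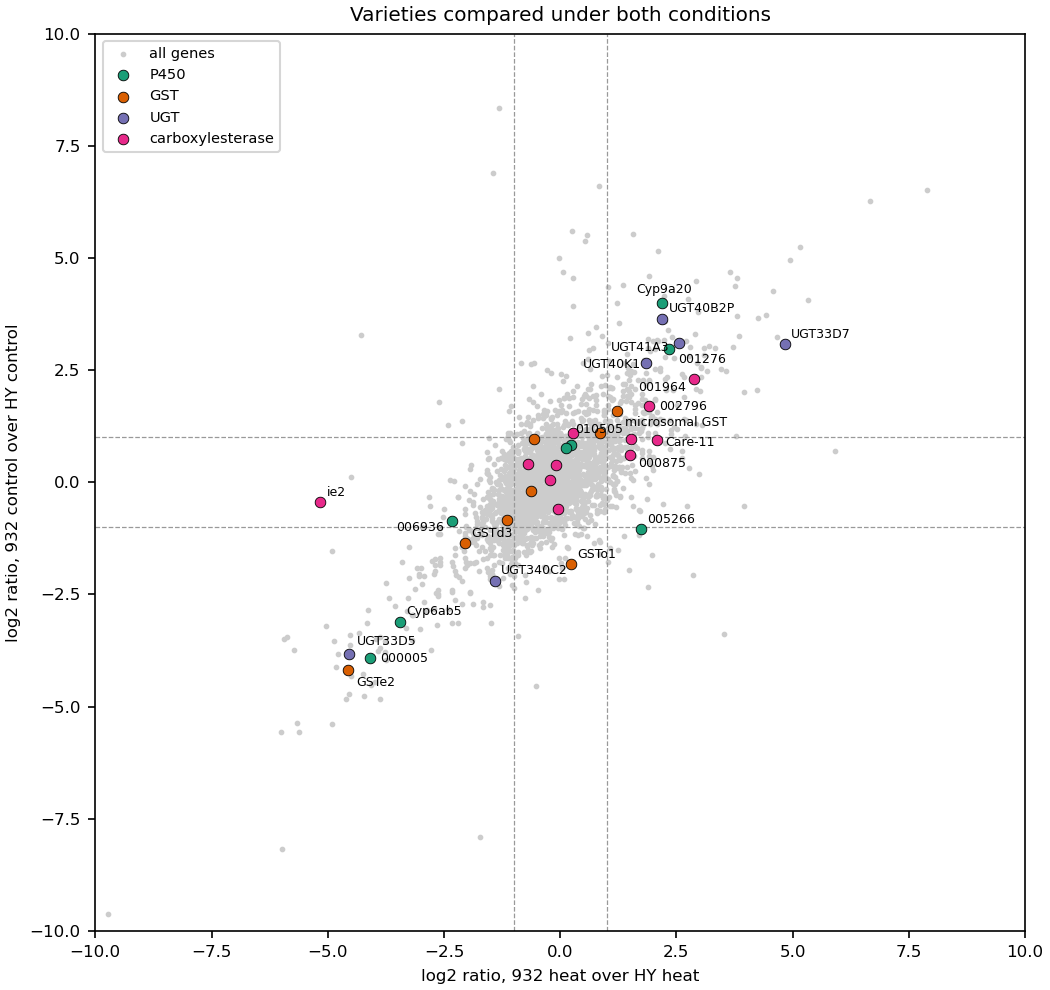
Log2 ratio of 932 over HY under heat (x axis) and under control (y axis) for genes above the minimum in both comparisons, with all genes in grey, the 33 members in colour, and dashed lines at 2-fold. Of the members, 9 lie past 2-fold in the upper right and 6 in the lower left, and BGIBMGA005266 lies past 2-fold in the lower right. UGT33D7, GSTe2, GSTd3 and UGT33D5 are listed at 0 in both libraries of a variety, so they had to lie past 2-fold in those corners.

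After heat most of the carboxylesterases chosen by name lay below control in both varieties. The whole counting interval lay below 0 in both varieties for 5 of 10 members above the minimum in both, where 4.04% of all genes compared did so. No carboxylesterase had an interval above 0 in both, where 12.1% of all genes did; the members of the other families that did were Cyp9a22 and the microsomal GST. Past 2-fold, 3 of 12 were lower in 932 and none higher, where 9.86% and 11.1% of all genes were. In HY 2 of 10 were lower and 1 higher, where 4.59% and 14.1% of all genes were. After centring the HY counts were 5 lower and 1 higher, with no share of all genes to set beside them. The family medians were -0.49 in 932 and -0.55 in HY. With 20 further esterase models outside the name rule, such as alpha-esterases and antennal esterases, they were -0.32 and -0.14, and 2 of 23 were then higher and 3 lower in 932, and 2 of 21 higher and 3 lower in HY. The summed midgut markers were also lower in 932 heat than in 932 control but not in HY heat, as given above. The HY sums depended on the trypsin-like BGIBMGA003605, with 767.9 RPM in HY heat and 57.4 in HY control. Without it the other models summed to 5991.8 RPM in HY heat and 6467.6 in HY control. In 932 these others summed to 6630.4 RPM in heat and 11119.8 in control. The part of the midgut markers in the result was not tested. The 3 lower ones in 932 were BGIBMGA001963, ie2 (listed at 0 in 932 heat) and BGIBMGA004684 (hit CCE017a), which had 0.51 RPM in 932 heat and 2.61 in 932 control and was listed at 0 in both HY libraries.

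BGIBMGA000875 (hit CCE006d of the cotton bollworm, Helicoverpa armigera) had 62.1 RPM in 932 heat and 85.4 in 932 control, and 21.3 in HY heat and 55.5 in HY control. Its heat ratio was -0.45 [-0.66 to -0.26] in 932 and -1.34 [-1.69 to -1.08] in HY. BGIBMGA001964 (hit CCE021b) had 33.3 RPM in 932 heat and 58.6 in 932 control, and 3.66 in HY heat and 11.0 in HY control. Its heat ratio was -0.80 [-1.08 to -0.56] in 932 and -1.37 [-2.36 to -0.87] in HY. Heat was below control in each pair, and for both genes the 932 libraries were above the HY libraries.

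BGIBMGA001963, a carboxylesterase-like model, had 12.0 RPM in 932 heat and 27.9 in 932 control, and 12.8 in HY heat and 21.0 in HY control. Here the varieties overlapped and heat was below control in both, with ratios of -1.15 [-1.64 to -0.80] in 932 and -0.67 [-1.15 to -0.29] in HY. CCE006a was the best hit of 6 models, of which 3 were above 10 RPM, and whether these are separate genes or pieces of one cannot be told from the table. BGIBMGA002796 had 58.9 RPM in 932 heat and 94.96 in 932 control, and 15.0 in HY heat and 28.5 in HY control. BGIBMGA002902 had 46.3 RPM in 932 heat and 55.9 in 932 control, and 47.8 in HY heat and 85.0 in HY control. BGIBMGA003517 had 28.5 RPM in 932 heat and 41.5 in 932 control, and 33.1 in HY heat and 40.0 in HY control. Each value was lower in heat than in control, although the HY interval of BGIBMGA003517 reached 0.01, and of these 3 only BGIBMGA002796 was past 2-fold between the varieties, at 1.90 [1.63 to 2.32] under heat and 1.70 [1.49 to 2.00] under control. Its heat ratio was -0.68 [-0.89 to -0.50] in 932 and -0.88 [-1.31 to -0.55] in HY.

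Integument esterase 2 (ie2, BGIBMGA009544) was the only carboxylesterase past 2-fold higher after heat in either variety. It was listed at 0 in 932 heat and had 1.14 RPM in 932 control, and it had 34.8 RPM in HY heat and 1.90 in HY control. HY heat was far above the other 3 libraries, with a heat ratio in HY of 3.63 [3.33 to 5.22]. Of the 19 cuticle protein models, listed by name for the integument that the name ie2 refers to, 13 were above 0 in HY heat and 8 in HY control. The model of CPH45 (BGIBMGA004124) had 57.3 RPM in HY heat and 1902.0 in HY control, and the others summed to 1431.3 and 1592.3 RPM. Nearly all of these sums came from the CPH43 models BGIBMGA005302, with 681.7 RPM in HY heat and 742.9 in HY control, and BGIBMGA013778, with 738.6 and 841.2. Every remaining cuticle model had at most 4.66 RPM in any library. Whether the CPH43 and CPH45 models mark the integument in these midguts was not tested. The part of the cuticle models in the ie2 result was not tested either. BGIBMGA012752, whose hit to a bollworm esterase was weak, had 17.5 RPM in 932 heat and 23.9 in 932 control, and 29.0 in HY heat and 17.9 in HY control. It was the other carboxylesterase above 10 RPM with a positive HY heat ratio, at 0.66 [0.33 to 1.06], against -0.43 [-0.83 to -0.08] in 932.

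Under heat 5 of 11 carboxylesterases above the minimum were higher in 932 than in HY and 1, ie2, lower, where 14.1% and 20.8% of all genes were. Under control 4 of 12 were higher and none lower, where 17.9% and 15.1% were. Either way, 54.5% of the carboxylesterases under heat and 33.3% under control were past 2-fold, against 34.8% and 33.0% of all genes. The medians were 0.27 under heat and 0.78 under control. The 4 under control were BGIBMGA001964, BGIBMGA002796, BGIBMGA004684 and BGIBMGA002899, and BGIBMGA004684 and BGIBMGA002899 had a value of 0 in HY control. BGIBMGA010505, a silkworm carboxylesterase, had 145.2 RPM in 932 heat and 103.8 in 932 control, and 49.6 in HY heat and 52.9 in HY control. It was at 1.53 [1.36 to 1.74] under heat and 0.96 [0.77 to 1.17] under control, with both 932 libraries above both HY libraries. Care-11 (BGIBMGA000837) had 5.32 RPM in 932 heat and 2.93 in 932 control, and 0.50 in HY heat and 1.03 in HY control, with a ratio of 2.07 [1.73 to 5.77] under heat. BGIBMGA001964 had ratios of 2.88 [2.54 to 3.89] under heat and 2.31 [2.02 to 2.82] under control, and BGIBMGA000875 was past 2-fold under heat, at 1.50 [1.25 to 1.85]. The remaining 8 carboxylesterase models had at most 2.61 RPM, and BGIBMGA004683 was listed at 0 throughout.

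**Figure D4:**
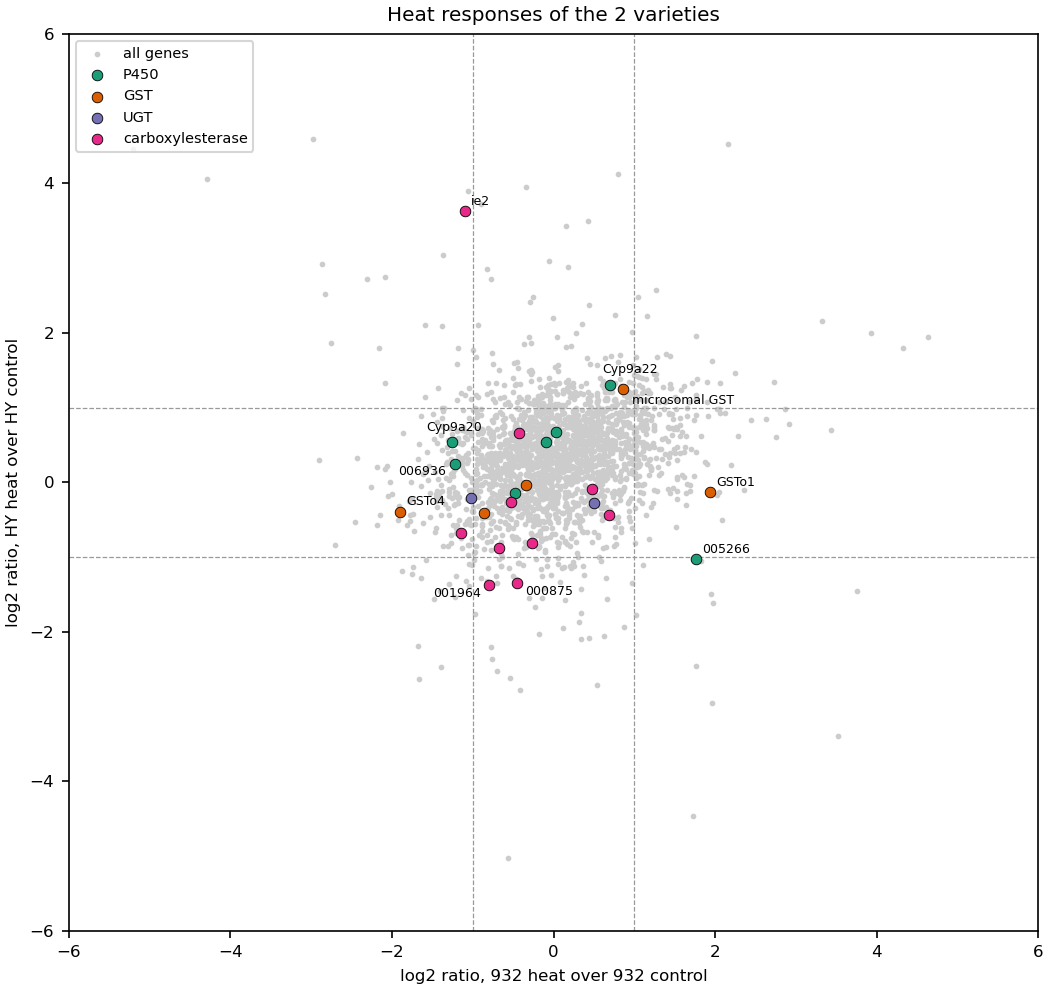
Log2 ratio of heat over control in 932 (x axis) and in HY (y axis) for genes above the minimum in both varieties, with all genes in grey, the 24 members in colour, and dashed lines at 2-fold. No member lies past 2-fold in the upper right or lower left, most carboxylesterases lie below 0 on both axes, and BGIBMGA005266 and ie2 lie past 2-fold in opposite corners.

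Members that are close in the genome did not always move alike. By RefSeq order no protein-coding gene lies between GSTo1 and GSTo4, whose ratios after heat in 932 were 1.93 and -1.91. GSTo1 had only 9 tags in 932 control. How tags that match several copies were counted was not given, so the split between GSTo1 and GSTo4 is uncertain. Together they had 17.50 RPM in 932 heat and 38.28 in 932 control, and 20.81 in HY heat and 26.21 in HY control. Cyp9a20 and Cyp9a22 have 6 protein-coding genes between them, and their ratios after heat in 932 were -1.26 and 0.70. UGT340C2 and UGT33D5, with 6 genes between them, were both lower in 932 than in HY, while UGT33D7 on the far side of UGT33D5 was higher. Of the UGT41A genes, UGT41A3 and UGT41A1 are neighbours, and UGT41A1 had at most 0.50 RPM. These pairs were named after their values were seen.

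Lists of enzymes that serve these families were drawn up by name, and the genes described from each are those of greatest change past 2-fold, apart from the short lists that are given whole. Of 2 electron donors 1 was above the minimum, cytochrome b5 (BGIBMGA014208), which passes electrons to some P450s. It had 5.49 RPM in 932 heat and 1.95 in 932 control, and 87.8 in HY heat and 33.1 in HY control. Both 932 libraries were below both HY libraries, with ratios of -3.77 [-4.56 to -3.48] under heat and -3.53 [-5.06 to -3.24] under control. Heat was above control in both varieties, at 1.14 [0.49 to 2.58] in 932 and 1.38 [1.17 to 1.65] in HY. The other donor, adrenodoxin, had at most 0.67 RPM. P450 reductase itself had at most 0.86 RPM and was listed at 0 in both control libraries. The only model of a xenobiotic regulator, cap-n-collar (BGIBMGA001765), which in flies switches on GST genes, had 0.33 RPM in HY heat and was listed at 0 elsewhere.

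Of 23 other oxidising, reducing and conjugating enzymes, 6 of 12 above the minimum under heat and 6 of 11 under control were higher in 932 than in HY, with 1 and none lower. The shares of all genes were 14.1% higher and 20.8% lower under heat and 17.9% and 15.1% under control. Of the 6 higher ones, 2 were listed at 0 in the HY library under each condition. The aldehyde dehydrogenase BGIBMGA002457 had 32.4 RPM in 932 heat and 90.2 in 932 control, and 5.99 in HY heat and 6.55 in HY control. Another, mitochondrial by its hit (BGIBMGA001402), had 4.12 RPM in 932 heat and 13.2 in 932 control, and 0.83 in HY heat and 1.90 in HY control. In 932 both were past 2-fold lower after heat, at -1.45 [-1.72 to -1.24] and -1.47 [-2.40 to -1.01]. An alcohol dehydrogenase (BGIBMGA005506) had 7.55 RPM in 932 heat and 12.5 in 932 control, and 1.00 in HY heat and 0.52 in HY control.

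Some groups of ABC transporters pump conjugated products out of cells, while others move lipids. Of 17 models, 3 of 13 above the minimum were lower and none higher after heat in 932, where 9.86% and 11.1% of all genes were. In HY 5 of 8 were higher and none lower, where 14.1% and 4.59% of all genes were, but 3 of the 5 were listed at 0 in HY control and 1 was left higher after centring on the median gene. Under heat 1 of 10, listed at 0 in an HY library, was higher in 932 than in HY and none lower, where 14.1% and 20.8% of all genes were. After centring 3 were higher and none lower. Under control 7 of 12 were higher in 932 and none lower, where 17.9% and 15.1% were, and 5 of the 7 were listed at 0 in HY control. BGIBMGA007218, of subfamily A, had 9.61 RPM in 932 heat and 11.9 in 932 control, and 17.5 in HY heat and 5.52 in HY control. Its heat ratio in HY was 1.50 [1.08 to 2.28] and in 932 -0.28 [-0.84 to 0.21]. BGIBMGA007217, with the same hit name, had 0.34 RPM in 932 heat and 3.42 in 932 control, 0.83 in HY heat, and was listed at 0 in HY control. BGIBMGA006882 had 1.72 RPM in 932 heat and 1.30 in 932 control, and 4.33 in HY heat and 1.21 in HY control.

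For glutathione supply only 3 gamma-glutamyl enzymes were found, 1 of them a protein cross-linking transglutaminase by its hit (BGIBMGA001976). It had 29.0 RPM in 932 heat and 14.0 in 932 control, and 140.9 in HY heat and 61.6 in HY control. The gamma-glutamyl transpeptidase BGIBMGA005447 had 3.95 RPM in 932 heat and 2.77 in 932 control, and 0.33 in HY heat and 0.86 in HY control. BGIBMGA002521, a gamma-glutamyltransferase, was listed at 0 in both 932 libraries and had 1.50 RPM in HY heat and 3.97 in HY control. UDP-glucose pyrophosphorylase, which makes the sugar donor of UGTs, had at most 2.66 RPM.

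The list of other esterases held 30 models and took in phosphodiesterases and thioesterases by name. Of these, 9 of 22 above the minimum under heat and 7 of 19 under control were higher in 932 than in HY, with 6 and 4 lower. The same shares of all genes apply, and a library listed at 0 fixed 4 of the 9 higher and 3 of the 6 lower calls under heat, and 3 of the 7 and 2 of the 4 under control. After heat 2 of 18 were higher and none lower in 932, where 11.1% and 9.86% of all genes were. In HY 1 of 18, listed at 0 in HY control, was higher and 2 lower, where 14.1% and 4.59% were. After centring the HY counts were 0 higher and 4 lower. The antennal esterase BGIBMGA007546 had 17.3 RPM in 932 heat and 4.56 in 932 control, and 0.33 in HY heat and 1.72 in HY control. Ae48 (BGIBMGA011218), an alpha-esterase, had 13.0 RPM in 932 heat and 16.5 in 932 control, was listed at 0 in HY heat and had 0.34 RPM in HY control. BGIBMGA012122, another antennal esterase by its hit, had 4.29 RPM in 932 heat and 8.47 in 932 control and was listed at 0 in both HY libraries.

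The heat responses of the varieties differed by at least 2-fold for 18 of 42 members, with 8 greater and 10 smaller in 932, where 8.09% and 18.8% of all genes were greater and smaller. After centring these were 10 and 5, and no shares of all genes are given for that setting. The greatest differences, 932 minus HY, were 2.91 for BGIBMGA002272, where 2 libraries were listed at 0, 2.78 for BGIBMGA005266 and 2.06 for GSTo1. At the other end were ie2 at -4.72, where 932 heat was listed at 0, Cyp9a20 at -1.81 and GSTo4 at -1.51. With 1 pair of libraries behind each response, none of these differences could be tested.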

How the data were processed

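Per the file headers, the deposited table gives normalized values called TPM, and the values behave as RPM, tags per 1000000 tags of the library, and beside them the text of a best protein hit per gene model. The aligner, the counting and the gene model build are not given in the sources used here. RNA was extracted with Trizol, per the labels' protocols. Library totals were recovered from the steps of the values: at these totals 100% of values were whole tags within 0.0051 RPM. The listed models took 15.2%, 18.6%, 15.0% and 11.6% of the tags in 932 heat, 932 control, HY heat and HY control. Ratios are log2 of RPM plus 1 with a minimum of 1 RPM in 1 library, and intervals are exact (Clopper-Pearson, 95%). Shares of all genes past the same rule stand beside the members' counts, but not beside counts after centring, with a minimum of 10 RPM or with 10 added. Members with at least 10 RPM in 1 library, or past 2-fold with at least 3 RPM, were named, and from each list of serving enzymes at most 3 genes past 2-fold. The members and lists were chosen with earlier results of these data known. Symbols came from RefSeq (ASM3026992v2) by hit accession for 34 members, and gene order only was used. The calculations were tested on simulated data. Calculations ran in Python 3.11.15 with scipy 1.17.1, numpy 2.4.6 and pandas 2.3.3, and plots were drawn with matplotlib 3.10.9.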

Additional observations from a re-analysis of the deposited data

Results flagged for a closer look

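For 2 members the heat responses of the varieties went opposite ways past 2-fold, and the difference was not tested, because each response is 1 pair of libraries. The P450 model BGIBMGA005266 had a log2 ratio of 1.76 in 932 and -1.02 in HY. Integument esterase 2 (ie2, BGIBMGA009544) had -1.10 in 932, where it was listed at 0 in heat, and 3.63 in HY. With 10 added in place of 1 the ratios of BGIBMGA005266 in HY and of ie2 in 932 were -0.71 and -0.16, so neither then passed 2-fold. Of all genes compared in both varieties, 0.521% were higher in 932 and lower in HY, and 1.17% the reverse.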

How the results depend on the processing

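No paired analysis was possible because each group holds 1 library, and for the same reason no library could be left out of a comparison. No ratio past 2-fold changed sign under any alternative. Counts of members past 2-fold changed by over 1.5 times as follows. With a minimum of 10 RPM, 2 were higher and 4 lower after heat in 932, 3 were lower in HY, 10 were higher in 932 than in HY under heat, 8 were higher and 6 lower under control, and for the difference of the responses 2 were greater and 5 smaller. With 10 added, 2 were higher and 2 lower after heat in 932, 1 was lower in HY, 10 were higher in 932 than in HY under heat, 7 were higher and 5 lower under control, and for the difference 2 were greater and 3 smaller. With whole counting intervals beyond 2-fold (a value of 0 taken as 1 tag), 3 were higher and 2 lower after heat in 932 and 2 lower in HY. Median-of-ratios factors left 1 member higher after heat in HY, and centring left 1 higher and 8 lower there and 5 smaller for the difference. These alternatives raise the bar for low genes or shift HY heat by construction. Apart from the counting intervals, no shares of all genes are given for them. Having no minimum, 0.1 added, leaving out P450 reductase, and, added after the data had been seen, leaving out weak hits or adding 20 esterases outside the name rule, kept the counts over all members within 1.5 times. P450 reductase never reached 1 RPM, so leaving it out could not change a count. With 1 added, a gene below 1 RPM in both libraries cannot pass 2-fold. Having no minimum therefore could not change the counts after heat or between the varieties. Among the families, adding these esterases moved the carboxylesterase counts for 932 over HY to 13 higher and 5 lower under heat and 11 higher and 3 lower under control, and leaving out weak hits took away the only GST that was lower after heat in HY. Of the ratios of named members under the alternatives, 771 kept their side of 2-fold, 35 dropped below it and 10 passed it. Of the 771, 141 came from having no minimum and 111 from a minimum of 10 RPM. A minimum does not alter a ratio, so these could not have moved. Of the family medians under the alternatives 165 moved by less than 0.5 and 15 by more, 9 of these for the UGTs. Without weak hits the medians of 932 over HY under heat were 0.88 for the carboxylesterases and 0.73 for the P450s. Depth limits the low members: 23 of the 69 were above 0 but never reached 1 RPM.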
